A study of Homo sapiens with 6 samples.

Results

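The 47 genes described here encode the factors that start and extend protein synthesis: the initiation factors eIF1, eIF1A, eIF2, eIF2B, eIF3, eIF4, eIF5, eIF5A, eIF5B and eIF6, the elongation factors eEF1 and eEF2, the poly(A)-binding proteins PABPC1 and PABPC4, and TPT1, the translationally controlled tumour protein. They were chosen by name. Each of the 47 symbols matched a single Ensembl ID among the 62703 genes of the deposited table. Poly(A)-enriched RNA came from MNNG/HOS Cl #5, an established human osteosarcoma line whose genotype is labelled WT, 7 days after seeding. The 3D group was 3 libraries of cells grown in a decalcified bone matrix scaffold, and the 2D group was 3 libraries of cells grown flat. Both groups were kept in the same high-sugar DMEM with 4 mM L-glutamine, 10% fetal bovine serum and 1% penicillin and streptomycin. The line is a single clone, so the comparison covers this line only. No label says that the libraries came from separate cultures, so the p-values measure the spread between these samples, which may be technical.

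Translation begins when the cap of an mRNA is bound by eIF4E, which sits with the scaffold eIF4G and the helicase eIF4A in the complex eIF4F. The small ribosomal subunit, carrying eIF1, eIF1A, eIF3, eIF5 and eIF2 with the initiator tRNA, is recruited there and scans to the start codon. GTP on eIF2 is hydrolysed, and eIF2B recharges eIF2. Phosphorylation of the alpha subunit of eIF2 turns it into an inhibitor of eIF2B, which is the core of the integrated stress response. During elongation eEF1A brings aminoacyl-tRNA to the ribosome, the eEF1B subunits recharge eEF1A, and eEF2 moves the ribosome along. Many mRNAs of the elongation factors and of the ribosomal proteins start with a C and an unbroken run of pyrimidines, the 5′ terminal oligopyrimidine or TOP motif, through which their translation is tied to mTORC1 and LARP1.

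In 3D, the mRNAs of EIF2S1, EIF2B1, EIF2B3, EIF3A, EIF3J, EIF4G1, EIF5 and EIF5A were higher, while those of the elongation factors EEF1A1, EEF1G and EEF2, of TPT1, of EIF4B and of EIF1 were lower, and these calls held under every alternative run. So did the higher calls of EEF1E1, EIF1AX, EIF3C, EIF4E and EIF4G2 and the lower calls of EIF3E and EIF3H. Of the 47 members, 46 passed the filter on low values, of which limma called 19 higher in 3D and 10 lower (adjusted p under 0.05) and left 17 uncalled. Over all 12843 genes tested, 33.3% were higher and 18.1% lower, so the members' shares of 41.3% and 21.7% lay near the background. The median log2 change of the members was 0.19, beside 0.14 for all tested genes. All 3D libraries lay above all 2D libraries for 22 of the 46 members, and the reverse held for 13. The same was true of 39.0% and 21.9% of all tested genes.

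Levels are FPKM, fragments scaled to the gene length and the library total. Changes are limma estimates of log2(FPKM + 1), 3D minus 2D, with their SE from 3 libraries per group, and they understate the change of genes with low FPKM. FPKM is relative to the rest of the library, and in bulk RNA fewer cells of a type and less RNA per cell cannot be told apart. When libraries were scaled by the median ratio over genes, the all-gene median went from 0.14 to 0.01, calls over all genes went from 4272 higher and 2328 lower to 3148 each way, and calls of members went to 13 higher and 15 lower, beside a background of 24.5% each way. No called member changed direction under this or any other alternative run. Of the 29 called members, 21 kept the call under every alternative run, 13 of them higher and 8 lower.

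**Figure D1:**
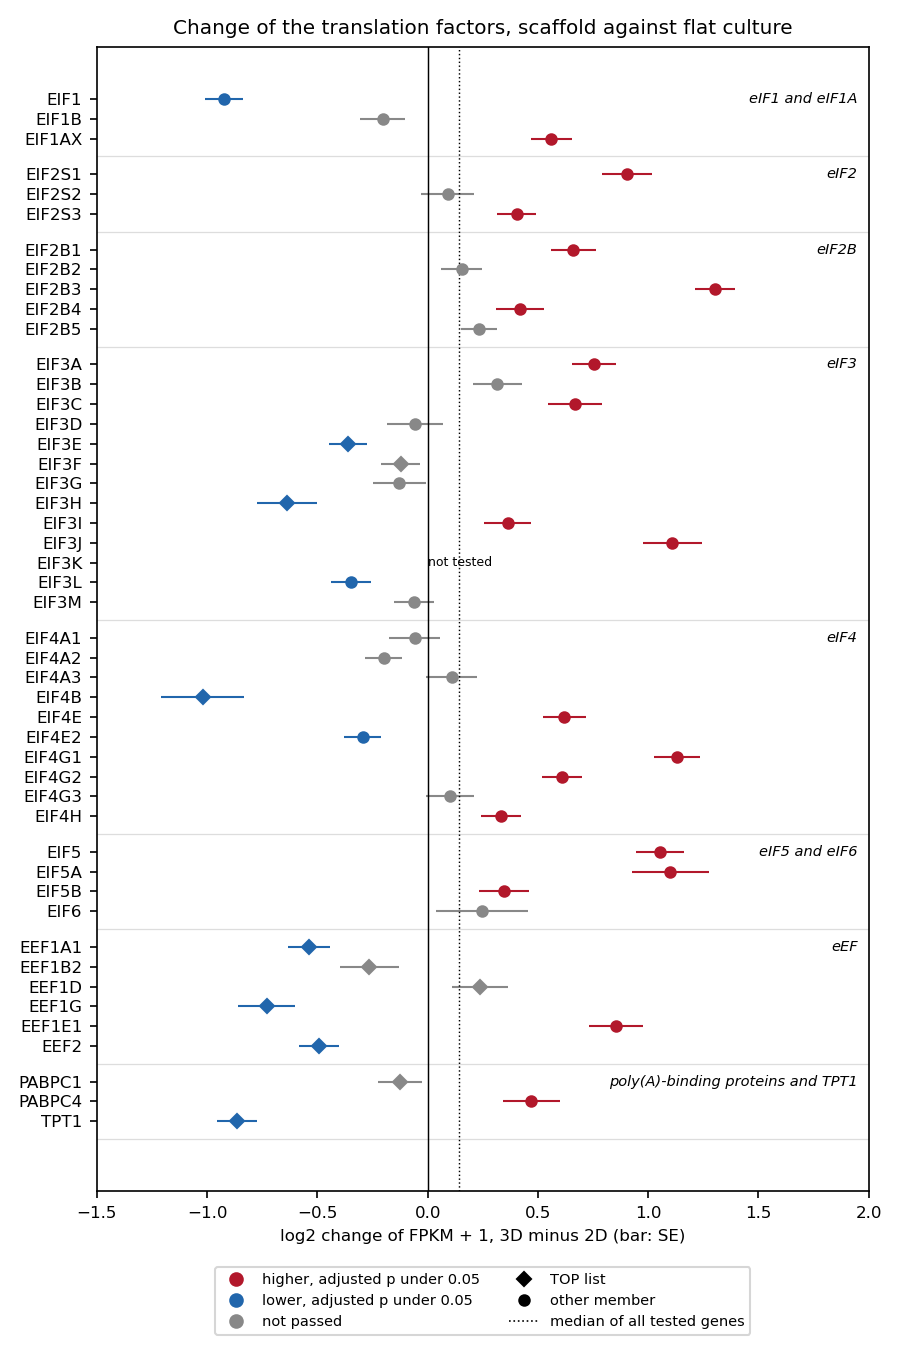
Log2 change of FPKM + 1 between 3D and 2D (x axis) for each translation factor (rows, by complex), with bars for the SE (3 libraries per group), colours for the limma call and diamonds for the TOP list. The 7 called TOP members all lie below 0, while 19 of the 22 called others lie above it. The TOP list was chosen with earlier results of these data known. The dotted line is the median of all tested genes, 0.14.

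Reads per library, worked out from the FPKM values, were 13332803 to 16361569 in 3D and 13652114 to 14240217 in 2D, and members had 19 to 77569 reads in a library. The correlation of log2 values across genes was 0.968 to 0.981 within groups and 0.886 to 0.920 between them. Of 8 osteoblast-lineage markers, only SPARC and COL1A1 reached the minimum for the test. SP7 and ALPL were at or near 0, and RUNX2, COL1A2 and SPP1 were low, at 0.0627 to 3.69 FPKM. BGLAP was low and lay lower in 3D, at 0.0848 to 0.312 FPKM, than in 2D, at 0.438 to 0.640. SPP1 lay the other way without overlap, at 0.483 to 2.07 FPKM in 3D and 0.205 to 0.381 in 2D. So did ALPL, at 0.0291 to 0.0475 FPKM in 3D and 0 to 0.0225 in 2D. RUNX2, COL1A2 and SP7 overlapped between groups. The 8 markers summed to 89.4 to 113 FPKM in 3D and 58.9 to 71.4 in 2D. Most of that difference came from COL1A1, which was called higher, with means of 43.7 FPKM in 3D and 8.28 in 2D. SPARC was not called (-0.11, limma adjusted p = 0.432). The sum of 4 immune markers, of which 3 were tested and 1 was lower, was 4.20 to 6.52 FPKM in 3D and 17.9 to 25.5 in 2D, most of it CD68, while the defining leukocyte gene PTPRC was near 0 in every library. The 3 erythroid genes, all tested and not called (limma adjusted p of 0.139 to 0.206), summed to 2.44 to 8.16 FPKM in 3D and 2.42 to 30.2 in 2D. Of these, HBA1 had 10.6, 16.6 and 1.02 FPKM in 2D replicates 1, 2 and 3, so 2D replicates 1 and 2 stood apart. No endothelial or adipocyte gene reached the minimum for the test. The 3 endothelial genes summed to 0.156 to 0.293 FPKM in 3D and 0.108 to 0.202 in 2D, with CDH5 at 0 throughout. The 3 adipocyte genes summed to 0.926 to 1.44 FPKM in 3D and 0.467 to 0.719 in 2D, with ADIPOQ at 0 throughout and most of the rest from FABP4. The part of these differences in the values below was not tested.

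Of the 6 elongation factor genes, 3 were lower in 3D, 1 was higher and 2 did not pass. Of all tested genes 18.1% were lower and 33.3% higher. EEF1A1 (ENSG00000156508), the GTPase that delivers aminoacyl-tRNA, lies on chromosome 6 from 73515750 to 73523797 (GRCh38, GENCODE 29). It had 151, 156 and 152 FPKM in 3D, given here and below in the order of replicates 1, 2 and 3, and 240, 223 and 206 in 2D. All 3D libraries were lower, and the change was -0.54 ± 0.10 (limma adjusted p = 0.00357), a ratio of means of 1.46 in favour of 2D. EEF1G, the structural gamma subunit of eEF1B, had 149, 150 and 154 FPKM in 3D and 280, 270 and 210 in 2D. Its 3D libraries were close together and its 2D libraries spread, without overlap, with a change of -0.73 ± 0.13 (limma adjusted p = 0.00333). Of the exon length of EEF1G, 99.9% is shared with another annotated gene, so its reads may have been split between the 2. EEF2 (chromosome 19, 3976056 to 3985469), the translocase, had 671, 700 and 676 FPKM in 3D and 983, 974 and 925 in 2D, and was shown per library for its role, chosen after its values were seen. The groups did not overlap, and the change was -0.49 ± 0.09 (limma adjusted p = 0.00383).

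EEF1E1 went the other way. It encodes a small protein related to the eEF1B subunits that sits in the multi-tRNA synthetase complex and is not itself a part of the ribosomal elongation cycle. It had 15.2, 12.5 and 12.1 FPKM in 3D and 7.82, 6.36 and 6.49 in 2D, and every 3D library lay above every 2D library. The change was 0.85 ± 0.12 (limma adjusted p = 0.00153), a ratio of 1.93. The exchange factors did not pass: EEF1B2 changed by -0.26 ± 0.13 (limma adjusted p = 0.140) and EEF1D by 0.24 ± 0.13 (limma adjusted p = 0.154), and the groups overlapped for each. EEF1B2 was called lower under median-ratio scaling (-0.44, limma adjusted p = 0.0350) and without 3D replicate 1 (-0.38, limma adjusted p = 0.0386). EEF1D shares 34.0% of its exon length with other annotated genes.

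TPT1 (chromosome 13, 45333471 to 45341370), an abundant protein whose mRNA is a standard example of the TOP class, had 29.1, 28.7 and 29.4 FPKM in 3D and 55.0, 56.7 and 49.8 in 2D. The 3D libraries agreed closely and lay far below the 2D libraries, at -0.86 ± 0.09 (limma adjusted p = 0.000536) and a ratio of 1.85 in favour of 2D. The poly(A)-binding proteins, which hold the mRNA tail and contact eIF4G, differed from each other. PABPC1 had 46.6, 39.8 and 38.6 FPKM in 3D and 46.1, 44.5 and 45.8 in 2D, with overlapping groups and a change of -0.13 ± 0.10 (limma adjusted p = 0.326). Under median-ratio scaling PABPC1 was called lower (-0.30, limma adjusted p = 0.0374). PABPC4, its cytoplasmic relative, had 6.66, 5.76 and 4.88 FPKM in 3D and 4.40, 3.75 and 3.46 in 2D. Its groups did not overlap and it rose by 0.47 ± 0.13 (limma adjusted p = 0.0199). The PABPC4 call was lost under median-ratio scaling (limma adjusted p = 0.0767) and when the library left out was 3D replicate 1 (0.0506) or 2 (0.0573), or 2D replicate 2 (0.0593) or 3 (0.0582).

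The members taken here from the literature as TOP mRNAs were EEF1A1, EEF1B2, EEF1D, EEF1G, EEF2, EIF3E, EIF3F, EIF3H, EIF4B, PABPC1 and TPT1. These 11 were listed with earlier results of these data known, so their counts are a description and not a test. The list may not be complete, and the counts below depend on it. EIF2S3, which is not on it, has the pyrimidine run at its annotated start and was higher in 3D (0.40 ± 0.09, limma adjusted p = 0.00797). By limma 7 of the 11 (63.6%) were lower in 3D, beside 18.1% of all tested genes. None was higher (0 also at an unadjusted p under 0.05), beside 33.3% of all tested genes, and 4 did not pass. The median change was -0.49, from -1.02 for EIF4B to 0.24 for EEF1D. By voom on worked-out reads, which called 24.6% of all genes higher and 25.0% lower, 10 of the 11 were lower and again 0 higher. For 8 of the 11 all 2D libraries lay above all 3D libraries, as for 21.9% of all tested genes. Of the other 35 tested members, 19 were higher, 3 lower and 13 did not pass, with a median of 0.35. Median-ratio scaling moved both medians down, to -0.67 and 0.17, and called 10 of the TOP members lower. With 3D replicate 3 left out the 3 lower calls among the other members became 1, and they became 2 when 3D replicate 2 or 2D replicate 2 or 3 was left out.

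The starts of these genes are shown because the TOP motif is a property of the first bases of the mRNA. RefSeq promoter windows on GRCh38.p14 were at hand for 38 of the 47 members, and each line below gives 10 bases before the annotated start and 20 from it on. Capitals mark an unbroken run of C or T that begins with C at the start and has at least 4 more such bases. The first 4 lines are members that fell and carry the run.
EEF1A1, chr6:73521013-73521042, minus strand: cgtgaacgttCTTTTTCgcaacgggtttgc
EEF2, chr19:3985444-3985473, minus strand: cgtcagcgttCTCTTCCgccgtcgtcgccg
TPT1, chr13:45341164-45341193, minus strand: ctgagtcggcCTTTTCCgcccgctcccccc
EIF4B, chr12:53006446-53006475, plus strand: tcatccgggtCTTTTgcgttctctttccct
EIF3F, chr11:7987327-7987356, plus strand: cttccgcctcCTTCTTTCTCgacaagatgg
EEF1B2, chr2:206159885-206159914, plus strand: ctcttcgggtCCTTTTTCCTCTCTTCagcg
EIF2S3, chrX:24054946-24054975, plus strand: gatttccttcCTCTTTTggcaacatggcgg
EEF1G, chr11:62573872-62573901, minus strand: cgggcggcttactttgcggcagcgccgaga
EIF1, chr17:41688875-41688904, plus strand: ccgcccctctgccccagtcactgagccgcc
EIF2B3, chr1:44986576-44986605, minus strand: gctgtcagtcagaggcggcgtggagatcgc
EIF3J, chr15:44537137-44537166, plus strand: ccgccgtgctaactcctcgctagctctccc
EIF2S1, chr14:67360318-67360347, plus strand: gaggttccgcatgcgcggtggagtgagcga

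EIF3F and EEF1B2 carry the run and did not pass the test, and EIF2S3 carries it and rose. EEF1G and EIF1 fell and have no run at the annotated start, while EIF2B3, EIF3J and EIF2S1 rose without it. In all, 11 of the 38 members with a window (28.9%) had the run at an annotated start, beside 5.14% of the 27305 genes in the RefSeq table. Of these 11, 6 were on the TOP list and 5 were not: EIF2S3, EIF3D, EIF3K, EIF3M and EIF4A2. Of the 10 tested among these 11, 1 was higher, 4 lower and 5 did not pass, with a median change of -0.23. Of the 27 members without the run, 16 were higher, 3 lower and 8 did not pass, with a median of 0.36. Among all tested genes 33.3% were higher and 18.1% lower, with a median of 0.14. The 4 lower members with the run are all on the TOP list, so these counts are not separate from those of that list. Starts were taken as annotated, on the coding strand only, and the start used in these cells was not measured. The letters CACGTG, an E-box that reads the same on both strands, were in 23.7% of the members' 300-base windows and in 8.77% of all genes'. The medians with and without them were 0.22 and 0.25.

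The initiation factors that find the start codon split. EIF1 (ENSG00000173812, chromosome 17, 41688885 to 41692668), which keeps the scanning ribosome from accepting a wrong codon, had 12.1, 11.6 and 11.7 FPKM in 3D and 23.2, 24.7 and 21.9 in 2D. The 3D libraries held about the same level and lay well below the 2D libraries. The change was -0.92 ± 0.09 (limma adjusted p = 0.000407), a ratio of 1.97 in favour of 2D. EIF1B, its close paralog, had 10.0, 10.6 and 9.80 FPKM in 3D and 13.2, 10.6 and 11.8 in 2D, where 2D replicate 2 all but met the 3D libraries. It changed by -0.20 ± 0.10 and did not pass (limma adjusted p = 0.133), but was called lower under median-ratio scaling (-0.37, limma adjusted p = 0.0172). EIF1AX, which occupies the A site during scanning, rose: it had 17.5, 16.6 and 16.4 FPKM in 3D and 12.0, 11.1 and 10.2 in 2D, a change of 0.56 ± 0.09 (limma adjusted p = 0.00259).

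Of the 3 subunits of eIF2, which carries the initiator tRNA, 2 rose and 1 did not pass. Of all tested genes 33.3% rose. EIF2S1 (ENSG00000134001, chromosome 14, 67359997 to 67386516), the alpha subunit that the stress kinases phosphorylate, had 52.2, 41.3 and 41.9 FPKM in 3D and 22.9, 23.2 and 24.5 in 2D. Every 3D library was higher, the change was 0.90 ± 0.11 (limma adjusted p = 0.000959) and the ratio was 1.92. EIF2S3, the gamma subunit that binds GTP and the tRNA, had 47.2, 41.7 and 43.4 FPKM in 3D and 32.3, 32.8 and 34.1 in 2D. It rose by 0.40 ± 0.09 (limma adjusted p = 0.00797), a call lost under median-ratio scaling (0.23, limma adjusted p = 0.0642). EIF2S2, the beta subunit, had 95.5, 76.6 and 75.3 FPKM in 3D and 81.8, 76.0 and 73.1 in 2D. These overlapped, at 0.09 ± 0.12 (limma adjusted p = 0.556), and the sign turned under median-ratio scaling.

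All 5 subunits of eIF2B, the factor that recharges eIF2 with GTP, had every 3D library above every 2D library in FPKM. So did 39.0% of all tested genes. The test called 3 of the 5 subunits higher, beside 33.3% of all tested genes, and 2 did not pass. EIF2B3 (ENSG00000070785, chromosome 1, 44850522 to 44986722), the gamma subunit of the catalytic pair, had 13.2, 12.6 and 11.8 FPKM in 3D and 4.50, 4.20 and 4.78 in 2D. Its change of 1.30 ± 0.09 (limma adjusted p = 0.000250), a ratio of 2.79, was the largest rise among the tested members in this fit. EIF2B1, the regulatory alpha subunit, had 16.6, 14.2 and 13.3 FPKM in 3D and 9.19, 8.74 and 8.78 in 2D, without overlap, and rose by 0.66 ± 0.10 (limma adjusted p = 0.00203). EIF2B4, the delta subunit, had 3.40, 2.93 and 2.47 FPKM in 3D and 1.92, 1.93 and 1.92 in 2D. It rose by 0.42 ± 0.11 (limma adjusted p = 0.0156) but not under median-ratio scaling (0.29, limma adjusted p = 0.0540). The catalytic epsilon subunit EIF2B5 stood at 0.23 ± 0.08 (limma adjusted p = 0.0503) and was called higher with a pseudocount of 0.1 (0.33, limma adjusted p = 0.0481). The beta subunit EIF2B2 stood at 0.15 ± 0.09 (limma adjusted p = 0.206), and its sign turned under median-ratio scaling.

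eIF3, the largest initiation factor, holds the small ribosomal subunit and the mRNA together. Of its 13 members, 12 were tested, of which 4 were higher, 3 lower and 5 did not pass, with a median of -0.06. The shares of 33.3% higher and 25.0% lower lay near those of all tested genes, 33.3% and 18.1%. EIF3A (chromosome 10, 119033670 to 119080823), the scaffold subunit, had 96.0, 91.3 and 93.4 FPKM in 3D and 49.8, 55.5 and 60.2 in 2D. The groups were far apart and the change was 0.76 ± 0.10 (limma adjusted p = 0.00114). EIF3C, another core subunit, had 58.4, 47.3 and 47.2 FPKM in 3D and 30.3, 35.2 and 29.5 in 2D, and rose by 0.67 ± 0.12 (limma adjusted p = 0.00393). Its near-identical copy EIF3CL is also among the genes called higher, and how reads that match both were assigned is not known. EIF3J (ENSG00000104131, chromosome 15, 44537057 to 44563029), a loosely attached subunit that acts at the mRNA entry channel, had 29.3, 21.2 and 23.3 FPKM in 3D and 10.4, 10.2 and 11.7 in 2D. It had the largest change of the complex, 1.11 ± 0.13 (limma adjusted p = 0.000845), a ratio of 2.28.

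The remaining eIF3 subunits moved less. EIF3I, a subunit of the core, rose by 0.36 ± 0.11 (limma adjusted p = 0.0264), a call lost under median-ratio scaling (limma adjusted p = 0.121) and when the library left out was 3D replicate 1 (0.0533) or 2 (0.0521), or 2D replicate 1 (0.0563), 2 (0.0642) or 3 (0.0663). The core subunit EIF3B stood at 0.32 ± 0.11 (limma adjusted p = 0.05002), just above the threshold, and was called higher with a minimum of 5 FPKM (limma adjusted p = 0.0427). EIF3H fell by 0.64 on the log2 scale (SE 0.14, limma adjusted p = 0.00722) and EIF3E by 0.36 (SE 0.09, limma adjusted p = 0.0115), both built on PCI or MPN domains and both of the TOP list. EIF3L, another PCI subunit, changed by -0.35 ± 0.09 (limma adjusted p = 0.0160), a call lost without 3D replicate 3 (-0.31, limma adjusted p = 0.0546), and 51.8% of its exon length is shared with other annotated genes. EIF3D, EIF3F, EIF3G and EIF3M did not pass, with changes from -0.13 to -0.06. Under median-ratio scaling EIF3F was called lower (-0.24, limma adjusted p = 0.0458). EIF3K had 0.250 to 0.412 FPKM, or 19 to 30 reads, per library, below the minimum for the test, with overlapping groups.

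**Figure D2:**
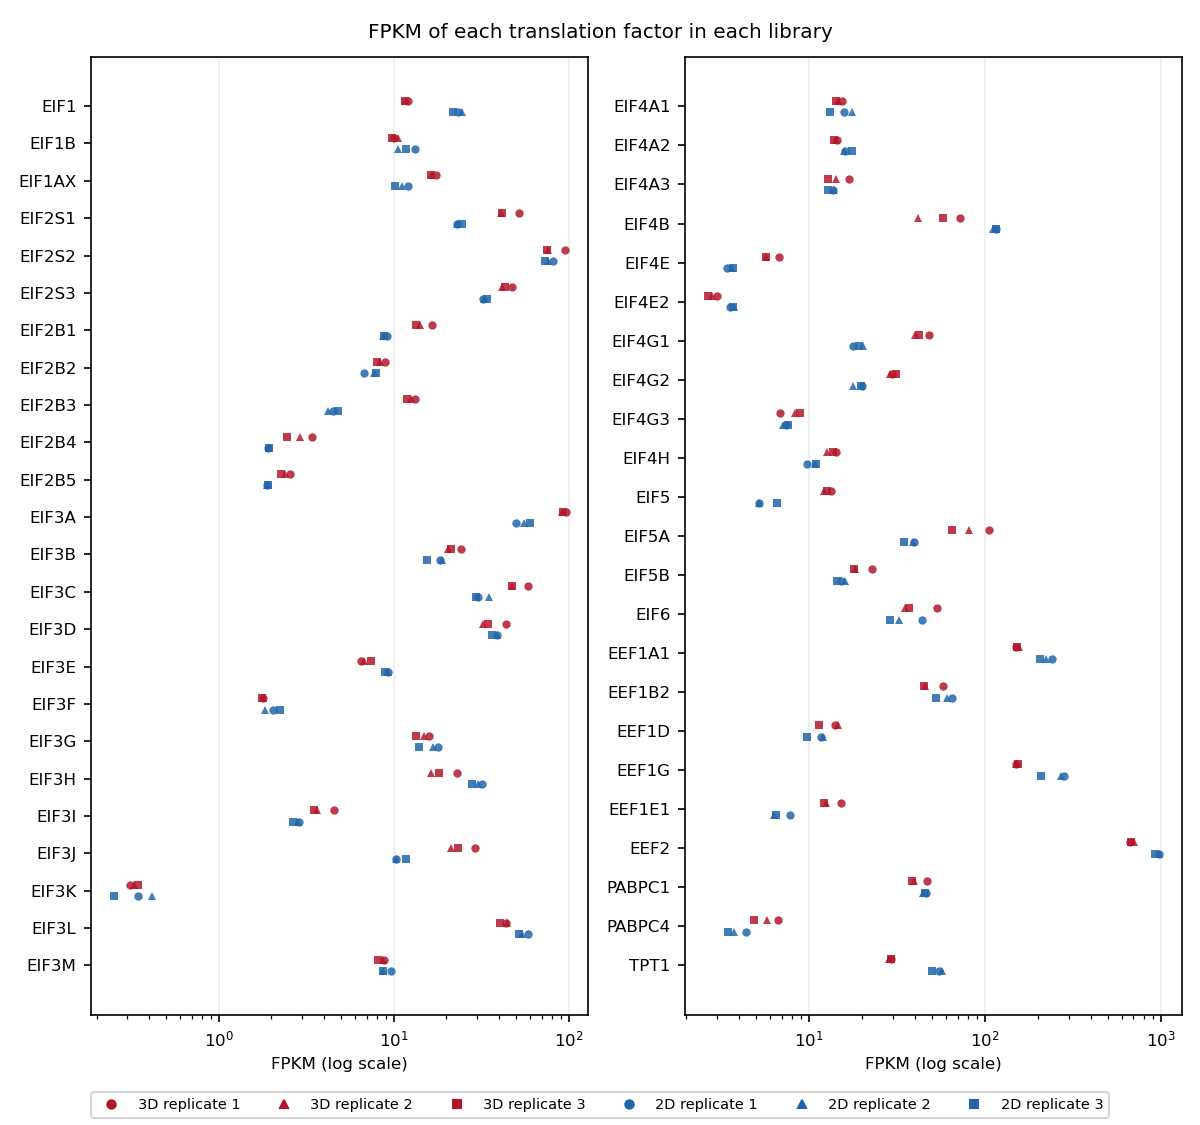
FPKM (log scale, x axis) of each of the 47 translation factors in each of the 6 libraries, red for 3D and blue for 2D, with marker shapes for the replicates. EIF2B3, EIF3J and EIF4G1 show 3D libraries far to the right of 2D libraries, and EIF1, EIF4B and TPT1 the reverse. Levels of different genes depend on the gene lengths used and are not to be ranked.

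Among the 10 members that bind or unwind the capped end of the mRNA, 4 rose, 2 fell and 4 did not pass. The shares over all tested genes were 33.3% higher and 18.1% lower. EIF4G1 (ENSG00000114867, chromosome 3, 184314495 to 184335358), the scaffold of eIF4F, had 47.9, 39.9 and 42.1 FPKM in 3D and 17.8, 20.4 and 19.3 in 2D. All 3D libraries were higher, by 1.13 ± 0.10 (limma adjusted p = 0.000400), a ratio of 2.26. EIF4G2, a relative that lacks the eIF4E-binding part and serves cap-independent initiation, had 29.5, 28.8 and 31.2 FPKM in 3D and 20.1, 17.8 and 19.8 in 2D, and rose by 0.61 ± 0.09 (limma adjusted p = 0.00165). EIF4G3, which can replace EIF4G1, had 6.85, 8.32 and 8.93 FPKM in 3D and 7.44, 7.12 and 7.59 in 2D. Its groups overlapped, it stood at 0.10 ± 0.11 (limma adjusted p = 0.469), and its sign turned under median-ratio scaling.

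The cap-binding proteins moved in opposite directions. EIF4E, the cap-binding subunit of eIF4F, had 6.79, 5.68 and 5.69 FPKM in 3D and 3.41, 3.66 and 3.68 in 2D, and rose by 0.62 ± 0.10 (limma adjusted p = 0.00217). EIF4E2, which binds the cap without binding eIF4G and acts as a repressor, had 2.98, 2.81 and 2.65 FPKM in 3D and 3.58, 3.73 and 3.72 in 2D. Its groups did not overlap and it changed by -0.29 ± 0.08 (limma adjusted p = 0.0234). The EIF4E2 call was lost when the library left out was 3D replicate 2 (limma adjusted p = 0.0758) or 3 (0.0704), or 2D replicate 2 (0.0704) or 3 (0.0508), and EIF4E2 shares 24.2% of its exon length with other annotated genes.

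The helicases did not pass. EIF4A1, the main helicase of eIF4F, had 15.5, 14.6 and 14.3 FPKM in 3D and 15.7, 17.6 and 13.2 in 2D, at -0.06 ± 0.12 (limma adjusted p = 0.702), and 48.6% of its exon length is shared with other annotated genes. EIF4A2, its paralog, had 14.4, 14.2 and 13.9 FPKM in 3D and 16.0, 15.9 and 17.5 in 2D. These did not overlap, at -0.20 ± 0.08 (limma adjusted p = 0.0849), and EIF4A2 was called lower under median-ratio scaling (-0.37, limma adjusted p = 0.00735). EIF4A3, which is part of the exon junction complex, stood at 0.11 ± 0.11 (limma adjusted p = 0.459), and its sign turned under that scaling.

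The helicase cofactors EIF4B and EIF4H, which share an RNA-binding domain, differed in sign. EIF4B (chromosome 12, 53006158 to 53042209) had 72.2, 41.5 and 57.9 FPKM in 3D and 116, 111 and 115 in 2D, shown per library after its values were seen. Its 3D libraries spread widely, yet all lay below the 2D libraries, and its change of -1.02 ± 0.19 (limma adjusted p = 0.00418) was the largest fall among the tested members in this fit. EIF4H rose by 0.33 ± 0.09 (limma adjusted p = 0.0195). That call was lost under median-ratio scaling (limma adjusted p = 0.169) and without 3D replicate 3 (0.0555) or 2D replicate 1 (0.0605).

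Of the 4 genes EIF5, EIF5A, EIF5B and EIF6, 3 were higher in 3D and 1 did not pass, beside 33.3% higher among all tested genes. EIF5 (ENSG00000100664, chromosome 14, 103333544 to 103345025), which triggers GTP hydrolysis on eIF2, had 13.4, 12.2 and 12.7 FPKM in 3D and 5.17, 5.22 and 6.61 in 2D. The 3D libraries lay close together and far above, at 1.05 ± 0.11 (limma adjusted p = 0.000562) and a ratio of 2.25. EIF5A, the hypusine-bearing factor that helps ribosomes through stalling sequences, had 105, 81.1 and 65.1 FPKM in 3D and 39.5, 39.2 and 34.7 in 2D. Its 3D libraries spread but did not reach the 2D libraries, and the change was 1.10 ± 0.17 (limma adjusted p = 0.00216). EIF5B, the GTPase of subunit joining, had 22.9, 18.3 and 18.1 FPKM in 3D and 15.2, 16.1 and 14.5 in 2D, and rose by 0.35 ± 0.11 (limma adjusted p = 0.0390). The EIF5B call was lost under median-ratio scaling (limma adjusted p = 0.252) and when the library left out was 3D replicate 1 (0.0664) or 2 (0.0605), or 2D replicate 1 (0.0874), 2 (0.0685) or 3 (0.0970). EIF6, which keeps the ribosomal subunits apart, overlapped between groups at 0.25 ± 0.21 (limma adjusted p = 0.359).

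Ratios of paralogs within a library do not depend on how libraries are scaled. For 5 such pairs, an exact 2-sided permutation test of 3 libraries against 3 cannot give a p below 0.1, so none of the differences can pass 0.05. The ratio of EIF4E to EIF4E2 was 2.02 to 2.28 in 3D and 0.953 to 0.990 in 2D, a 2.20-fold difference without overlap. EIF4G1 to EIF4G3 was 4.72 to 6.99 in 3D and 2.40 to 2.86 in 2D, 2.08-fold, again without overlap. The ratio of EIF1 to its paralog EIF1B was 1.10 to 1.21 in 3D and 1.76 to 2.33 in 2D, and that of PABPC1 to PABPC4 was 6.90 to 7.92 in 3D and 10.5 to 13.2 in 2D. Each of these 4 had an exact permutation p of 0.1, the smallest possible, and an adjusted p of 0.125 over the 5 pairs. EIF4A1 to EIF4A2 overlapped, from 1.02 to 1.07 in 3D and 0.757 to 1.11 in 2D (exact permutation p = 0.5).

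**Figure D3:**
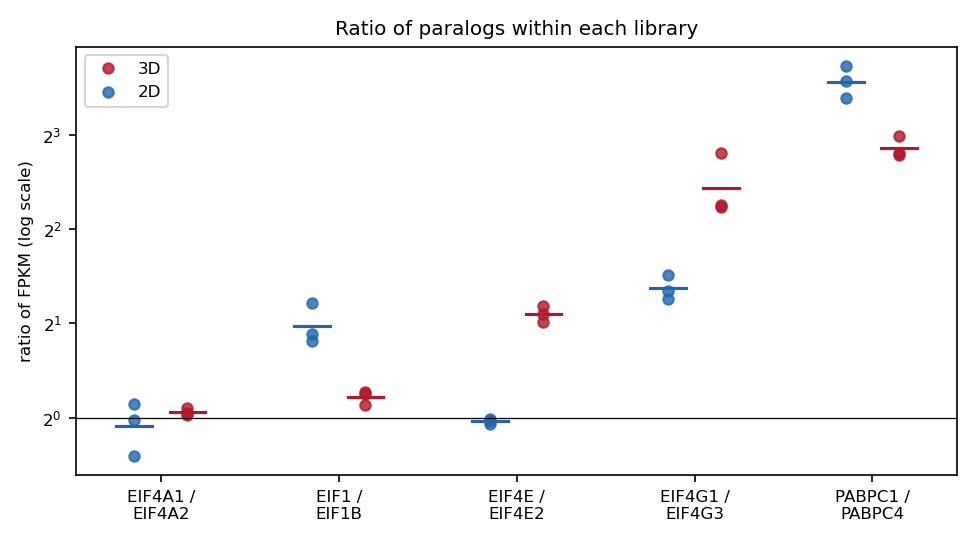
Ratio of FPKM of paralogs (y axis, log scale) in each library, with points for the 3 libraries of each group, red for 3D and blue for 2D, and bars for the mean of the log ratios. The groups are apart for 4 pairs and overlap for EIF4A1 to EIF4A2.

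Many translation factor genes have processed pseudogenes, copies of their mRNA inserted elsewhere in the genome, to which reads of the parent can be assigned. Named processed pseudogenes exist for 26 members, 176 in all, of which 87 had reads. For EEF1A1 they held 70.4 to 71.6% of the reads of the family, led by EEF1A1P5 with a mean of 5338 FPKM in 3D and 7350 in 2D. For EIF4E they held 50.5 to 54.7%. In 9 members the pseudogenes had at least 20% of the family's reads in at least 1 library. With the pseudogenes added to their parents, an alternative chosen after the data were seen, voom gave -0.69 ± 0.11 for EEF1A1 (adjusted p = 0.00150) and 0.63 ± 0.11 for EIF4E (adjusted p = 0.00214). EIF4B stood at -1.09 (voom adjusted p = 0.000880), and no tested member changed sign against voom on the gene alone. On the gene alone voom gave -0.73 for EEF1A1, 0.57 for EIF4E and -1.22 for EIF4B. The pseudogenes of EIF4B held 23.0 to 34.7% of the family's reads in 3D and 20.3 to 23.0% in 2D.

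**Figure D4:**
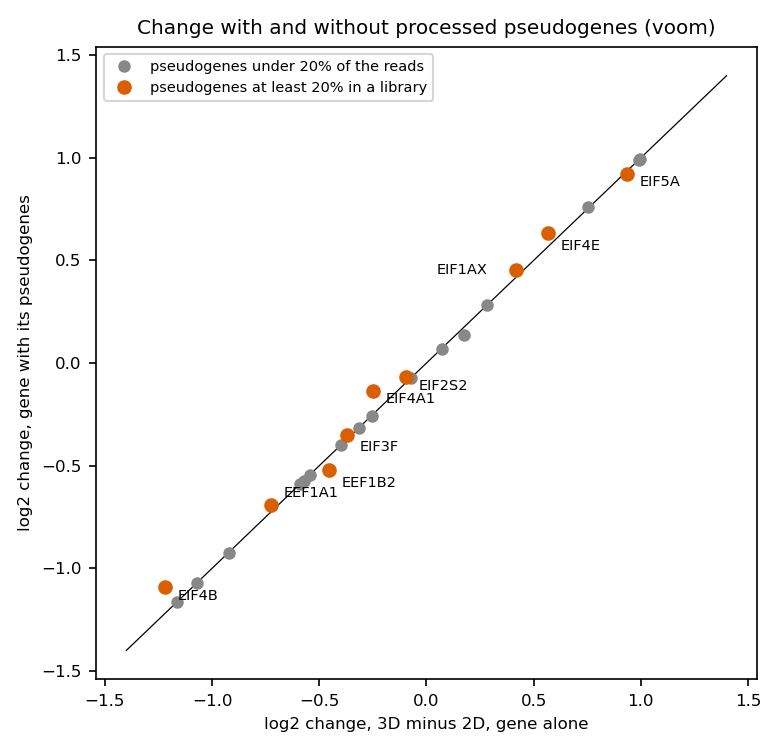
Log2 change of the members that have named processed pseudogenes, by voom on worked-out reads, for the gene alone (x axis) and with its pseudogenes added (y axis). Points lie near the line of equality, also for the 9 named members in which pseudogenes held at least 20% of the family's reads in a library.

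As a share of all reads, the 47 members held 1.78 to 1.93% in the 3D libraries and 1.99 to 2.16% in the 2D libraries, without overlap. Without EEF1A1 and EEF2 the share was 1.07 to 1.23% in 3D and 1.03 to 1.09% in 2D, which overlap. EEF1A1 with its pseudogenes alone held 1.21 to 1.24% in 3D and 1.64 to 1.85% in 2D.

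**Figure D5:**
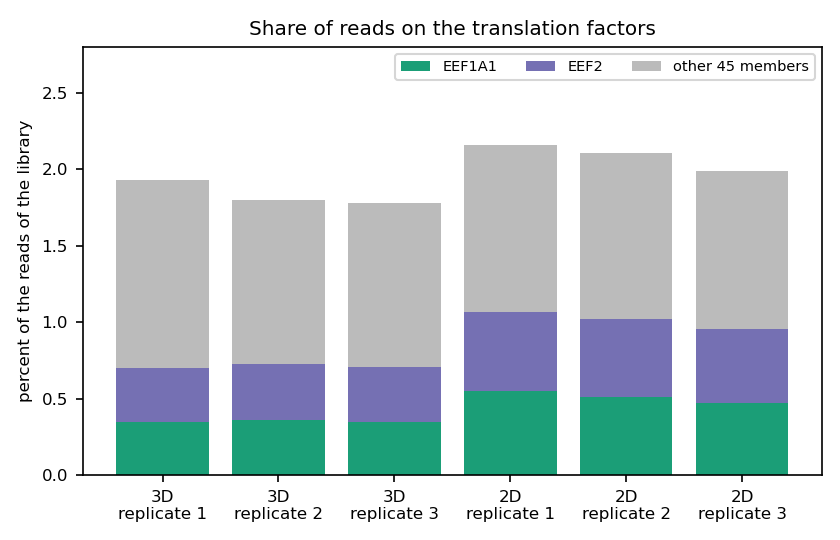
Percent of the reads of each library (y axis) on EEF1A1, EEF2 and the other 45 members, stacked, from reads worked out of FPKM. The 2D bars are taller, at 1.99 to 2.16% beside 1.78 to 1.93% in 3D, and the grey parts of the bars overlap between groups.

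Genes that act on or beside these factors were read from 7 further lists, and 55 of their 62 genes were tested, of which 22 were higher in 3D and 5 lower, or 40.0% and 9.09%, beside 33.3% and 18.1% of all tested genes. In the list of 4E-BPs and cap-binding partners, 4 of 7 tested genes were higher and 2 lower. The lower calls became 1 when 3D replicate 2 or 3, or 2D replicate 1 or 2, was left out, and 3 under median-ratio scaling. LARP1, which binds the TOP motif and represses TOP mRNAs when mTORC1 is off, had 21.7, 20.8 and 19.3 FPKM in 3D and 10.7, 11.7 and 13.0 in 2D, and rose by 0.76 ± 0.10 (limma adjusted p = 0.00117). PAIP2B, an inhibitor of poly(A)-binding protein, had 0.688, 1.13 and 1.48 FPKM in 3D and 4.01, 3.90 and 5.03 in 2D, and changed by -1.35 ± 0.16 (limma adjusted p = 0.000823). Neither gene overlapped between groups. In the list of eIF2 kinases and the eIF2 phosphatase, limma called 0 of 5 tested genes (2 at an unadjusted p under 0.05), while 2 were lower under median-ratio scaling and 3 by voom. In the limma fit PPP1R15A, the stress-induced phosphatase subunit, stood at -0.78 ± 0.28 (limma unadjusted p = 0.0274, adjusted p = 0.0527), and EIF2AK2, the kinase that senses double-stranded RNA, at 0.27 ± 0.11 (limma unadjusted p = 0.0367, adjusted p = 0.0669). PPP1R15A was called lower by voom (-1.24, adjusted p = 0.0324), under median-ratio scaling (-0.92, limma adjusted p = 0.0336) and without 3D replicate 1 (-1.08, limma adjusted p = 0.00760) or 2D replicate 3 (-0.96, limma adjusted p = 0.0441). EIF2AK2 was called higher without 3D replicate 1 (0.34, limma adjusted p = 0.0401).

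Among other initiation factors, 6 of 11 tested genes were higher and 1 lower, beside 33.3% and 18.1% of all tested genes. The lower call was lost when 3D replicate 2 or 3, or 2D replicate 1 or 2, was left out, and 2 genes were lower under median-ratio scaling. DHX9, an RNA helicase, rose by 1.47 ± 0.10 (limma adjusted p = 0.000267), from 24.4 to 29.5 FPKM in 2D to 71.3 to 80.5 in 3D. ABCE1, which recycles ribosomes for a new round, rose by 0.91 ± 0.11 (limma adjusted p = 0.000819). The termination factors rose in 2 of 3 cases: ETF1, which reads stop codons, by 1.29 ± 0.11 (limma adjusted p = 0.000323) and its GTPase partner GSPT1 by 0.89 ± 0.11 (limma adjusted p = 0.000864). Of 7 tested enzymes that put hypusine on eIF5A or diphthamide on eEF2, 2 were higher, and 1 other was lower under median-ratio scaling and with 3D replicate 2 left out. DPH3 rose by 0.87 ± 0.08 (limma adjusted p = 0.000450). DOHH, which completes hypusine, was called at 0.36 ± 0.13 (limma adjusted p = 0.0480), and lost that call under median-ratio scaling (limma adjusted p = 0.215) and when the library left out was 3D replicate 1 (0.123), 2 (0.0671) or 3 (0.0843), or 2D replicate 2 (0.0835) or 3 (0.116).

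Of 12 tested partners and regulators of elongation, 4 were higher and 1 lower, beside 33.3% and 18.1% of all tested genes. With 2D replicate 1 or 3 left out, 2 were higher, and under median-ratio scaling, as with 3D replicate 1 left out, 2 were lower. AIMP2, a scaffold of the same synthetase complex as EEF1E1, had 14.7, 11.1 and 10.5 FPKM in 3D and 4.86, 4.73 and 4.11 in 2D, a rise of 1.22 ± 0.14 (limma adjusted p = 0.000709). EEF1A2, the paralog of EEF1A1 best known from muscle and neurons, had 23.0, 20.9 and 19.0 FPKM in 3D and 41.1, 40.3 and 31.9 in 2D, a change of -0.81 ± 0.13 (limma adjusted p = 0.00220). Both EEF1A paralogs were thus lower in 3D. Of 10 tested factors of mitochondrial translation, 4 were higher and 1 lower, the latter call being lost when 3D replicate 1 or 2D replicate 1 or 2 was left out. GFM1, the mitochondrial translocase, had 6.24, 4.80 and 5.48 FPKM in 3D and 1.16, 1.38 and 1.15 in 2D, a rise of 1.54 ± 0.11 (limma adjusted p = 0.000267), and MTRF1L, a mitochondrial release factor, rose by 0.72 ± 0.08 (limma adjusted p = 0.000709).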

How the data were processed

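The authors deposited 1 table of FPKM values for 6 libraries. The submitters' processing notes list GRCh38 and FastQC, fastp, HISAT2, StringTie and edgeR, with neither role nor version. Gene annotation, strandedness and the treatment of multi-mapping reads are unknown here, so overlapping or near-identical genes may have shared reads unequally. FPKM were transformed as log2(FPKM + 1), genes with at least 1 FPKM in at least 3 libraries were kept, and 3D was compared with 2D using limma 3.58.1 (eBayes with trend and robust, statmod 1.5.0, R 4.3.3), without covariates, 2-sided, with Benjamini-Hochberg adjustment over 12843 genes and a threshold of 0.05. Reads were worked out as the smallest whole numbers that fit all libraries within 0.01 reads, for 33240 of 33243 genes above 0. A common factor cannot be seen, and the lengths found exceeded the GENCODE 29 exon length for 45 of 47 members. No replicate pair was alike enough to be 1 library (chi-square over degrees of freedom 12.9 to 28.7). Exact permutation tests used scipy 1.17.1 in Python 3.11.15.

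The members and lists were chosen with earlier results of these data known. Per-library values are given for the 3 members of smallest adjusted p in each complex and for the paralog pairs. They are also given for EEF2 and EIF4B, which were added after their values were seen. Other genes are the 2 of smallest adjusted p in each list. Alternatives were a pseudocount of 0.1, no filter, a minimum of 5 FPKM, median-ratio scaling, voom with TMM on worked-out reads, a replicate block, leaving out each library and, added later, voom with pseudogene reads added. The main fit and the TMM scaling factors were tested on simulated data, in which far fewer genes changed than were called here. The other alternatives were not tested this way.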

Additional observations from a re-analysis of the deposited data

How the results depend on the processing

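With a minimum of 5 FPKM, 5715 genes were tested, of which 2134 were higher and 1319 lower. In the main fit it was 4272 and 2328 of 12843. Under median-ratio scaling, voom and voom with pseudogenes, in this order, the median of the members was 0.031, 0.027 and 0.026, that of the TOP members -0.67, -0.68 and -0.68, and that of the other members 0.17, 0.18 and 0.18. Of the other members, 5 were lower in each of these 3 and 1 to 3 when a library was left out. In the same order, EIF2S2 turned to -0.089, -0.094 and -0.069, EIF2B2 to -0.0073, -0.013 and -0.013, EIF4A3 to -0.061, -0.071 and -0.072, and EIF4G3 to -0.059, -0.071 and -0.072. With a library left out, EIF2S2 ranged from -0.018 to 0.15, EIF3D from -0.18 to 0.032 and EIF4A1 from -0.16 to 0.030. None of these 6 was called. The difference in the log2 ratio of EIF4A1 to EIF4A2 was 0.15, and with a library left out it was -0.0043 to 0.27. The cause was not tested. Whether replicate numbers pair the samples was not tested. Correlations of deviations were 0.0837, -0.0172 and 0.184 for 3D and 2D replicates of the same number, beside -0.172 to 0.104 for other pairs. A fit with the replicate block called 4291 of all genes higher and 2382 lower. It kept all 29 member calls and added EIF3B (limma adjusted p = 0.0463). The filter on low values left EIF3K untested, and the lengths behind levels of different genes could not be checked.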
